A study of Mus musculus with 3 samples.

Results

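The receptors for IL-3, GM-CSF, IL-5, IL-4, IL-9, IL-6 and IL-33 were followed in mast cell progenitors (MCps) as 10 genes: Il3ra, Csf2ra, Il5ra, Csf2rb, Csf2rb2, Il2rg, Il4ra, Il9r, Il1rl1 and Il6ra. All array probes carrying these gene names were taken (Csf2rb appears on the array under its older name Csf2rb1), which gave 15 of the 41157 probes tested and 10 of 27951 gene names. The 2 groups were WT mice and mice lacking p85α, the regulatory subunit of class IA PI3K encoded by Pik3r1 (p85α-/-), with cultures from 3 separate mice each. Low density mononuclear marrow cells of both groups were kept for 7 days in IL-3 at 10 ng/mL and then sorted for both KIT and the IgE receptor. SCF, which binds KIT, was added at 100 ng/mL for 48 hours. The sorted cells were few, so the cDNA was amplified by PCR before labeling. No culture without SCF and none without IL-3 was analysed here. Each of 3 Agilent arrays carried 1 WT culture in Cy3 and 1 p85α-/- culture in Cy5, so dye and genotype cannot be told apart in any value that follows.

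IL-3, GM-CSF and IL-5 are each bound by an α chain of their own, which signals only together with a shared β chain. Mice carry a second β chain gene, Csf2rb2, a close copy of Csf2rb whose product serves the IL-3 receptor alone. IL-4 and IL-9 receptors use the common γ chain, IL-33 is bound by ST2 (the product of Il1rl1), and IL-6 by IL-6Rα with gp130. IL-3 drives the growth of mast cells from mouse marrow, and IL-4, IL-9 and IL-33 are known to shape their growth and cytokine output. Most of these receptors signal through JAK kinases and STAT factors, whereas ST2 signals through MyD88.

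The sequences just upstream of the start sites are shown for the 3 genes whose WT and p85α-/- levels did not overlap, Csf2rb2, Il4ra and Il1rl1. Capitals mark a STAT-type motif (TTCNNNGAA, which reads the same on both strands) or a GATA-type motif (GATAA or its reverse complement TTATC), as found by letter search in the 250 bases before the start site in RefSeq (GRCm38.p6). No such window was matched for Csf2rb.
Csf2rb2, chr15:78305722-78305971, minus strand: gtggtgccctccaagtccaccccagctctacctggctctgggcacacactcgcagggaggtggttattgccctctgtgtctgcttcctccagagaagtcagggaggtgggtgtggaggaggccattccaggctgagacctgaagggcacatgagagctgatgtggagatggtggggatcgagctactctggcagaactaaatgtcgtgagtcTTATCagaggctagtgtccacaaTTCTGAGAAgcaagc
Il4ra, chr7:125552021-125552270, plus strand: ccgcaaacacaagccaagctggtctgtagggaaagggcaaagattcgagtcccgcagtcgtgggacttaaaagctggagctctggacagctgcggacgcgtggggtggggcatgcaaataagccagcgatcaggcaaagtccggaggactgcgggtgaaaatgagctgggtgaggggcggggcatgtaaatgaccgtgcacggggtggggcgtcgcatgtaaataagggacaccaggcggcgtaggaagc
Il1rl1, upstream start site, chr1:40429320-40429569, plus strand: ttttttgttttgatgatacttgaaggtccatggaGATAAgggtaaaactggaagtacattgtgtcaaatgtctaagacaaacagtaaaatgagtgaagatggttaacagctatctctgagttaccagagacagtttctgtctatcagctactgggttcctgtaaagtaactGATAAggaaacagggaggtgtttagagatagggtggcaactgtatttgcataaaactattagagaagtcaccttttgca
Il1rl1, downstream start site, chr1:40439379-40439628, plus strand: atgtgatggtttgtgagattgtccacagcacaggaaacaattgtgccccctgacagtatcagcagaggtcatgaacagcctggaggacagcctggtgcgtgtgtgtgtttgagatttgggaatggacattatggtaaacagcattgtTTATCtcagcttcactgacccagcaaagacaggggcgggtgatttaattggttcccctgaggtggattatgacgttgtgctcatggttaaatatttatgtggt

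The window of Csf2rb2 held 1 STAT-type motif, whose first base lay at -15 from the start site, and 1 GATA-type motif at -38. Il1rl1 has 2 listed start sites. Its upstream window held GATAA-type letters at -216 and -79, and the downstream window held them at -103. The window of Il4ra held neither motif. Over 32851 windows of the same length, 7.02% held the STAT-type motif and 22.6% the GATA-type motif, so that the latter is common. Of the 10 windows matched to 9 members, only that of Csf2rb2 held the STAT-type motif. GATA-type motifs also lay in the windows of Il9r (-222, -169 and -30), Il5ra (-73) and Il6ra (-245), genes whose WT and p85α-/- levels overlapped. The windows of Il3ra, Csf2ra and Il2rg held neither motif. These matches are letters in a window, and binding was not measured.

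Pik3r1, the disrupted gene, was examined first in every sample. Its 4 probes had mean log2 ratios (p85α-/- over WT) of 0.59, -0.58, 0.32 and -0.04, and the brightest had 1.48, -0.03 and 0.33 on arrays 1, 2 and 3. Pik3r1 also encodes p55α and p50α, and whether any of these probes lies in the disrupted part is not given in the sources used here. The probes thus neither check nor go against the labels, and directions below are those of cultures labeled p85α-/- against cultures labeled WT. The median spot signal lay between 71.5 and 141.2 in WT and between 206.6 and 517.3 in p85α-/- before normalization, the highest being that of p85α-/- on array 2. Ratios were nearly unrelated between arrays (Pearson's r across probes, which are not replicates, between -0.03 and 0.17). After Benjamini-Hochberg adjustment of limma's p-values, 0 of 41157 probes (0%) passed 0.05, against 1829 without adjustment. The methods' t-test, unpaired, gave 0 and 1755 in the same order. The study's thresholds of 1.5-fold and an unadjusted p of 0.05 were therefore used below, with limma's p in place of the methods' t-test, by which 0 of the 10 receptor genes passed, and a gene is said to pass only in that sense. The 3 arrays limit the precision of every ratio.

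Of the 10 receptor genes, each taken at its brightest probe, 7 had a mean log2 ratio above 0 and 3 below, where 43% of all genes were above 0. The brightest probe was taken over all 6 channels, p85α-/- included. Taken by the WT level alone, 6 of 10 were above 0 (40.9% of all genes), Csf2rb being the one that turned (-0.06), and the same 2 genes passed. Il4ra and Il1rl1 passed both criteria. They were 2 of 10 genes and 2 of 15 probes, both higher in p85α-/-, where 2.78% of all probes passed as higher and 1.66% as lower. Of all 27951 genes at their brightest probe, 877 passed as higher and 580 as lower. No receptor gene passed as lower. WT and p85α-/- levels did not overlap for 3 of the 10, Csf2rb2, Il4ra and Il1rl1, all higher in p85α-/-, where 4.44% of all genes did not overlap in that direction. The same 3 were also those with 1 sign on all 3 arrays, a share to be read beside the 25.9% of all genes with 1 sign in either direction. The median over the 10 genes was 0.27, and -0.07 over all genes. That over the 10 was 0.22, 0.30 and 0.83 without replicates 1, 2 and 3, and 1.14 with median centring. By array, the median over the 10 was 0.48, 1.30 and -0.24, so that the direction was not shared by array 3. The lowest adjusted p of any receptor probe was 0.908 by limma's test.

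**Figure D1:**
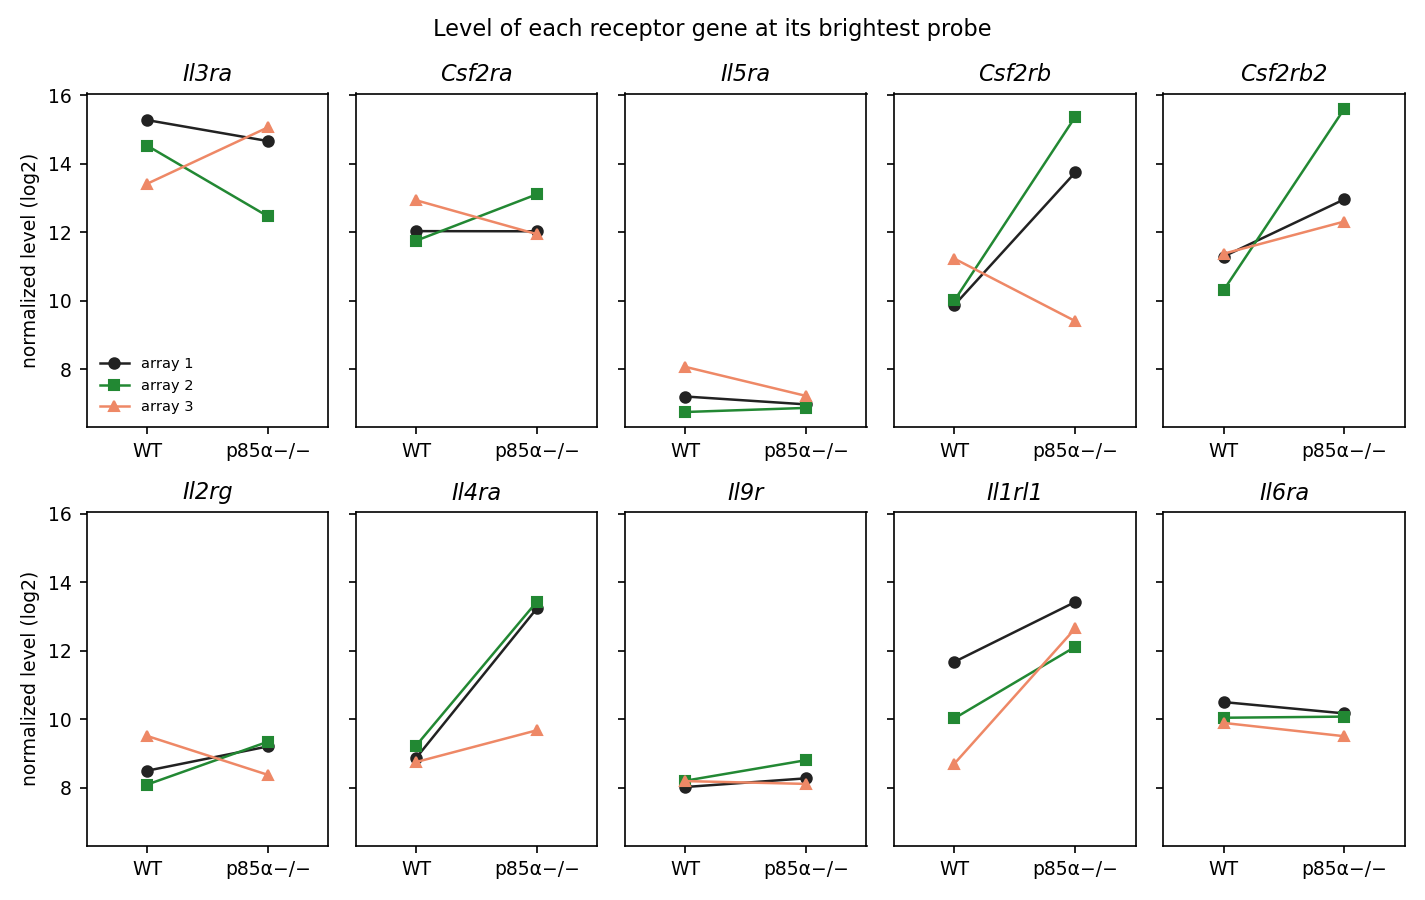
Normalized log2 level of each of the 10 receptor genes at its brightest probe (vertical axis, shared by all panels, though levels of different probes are not compared) in WT and p85α-/-, with 1 line for each array. All 3 lines climb from WT to p85α-/- for Csf2rb2, Il4ra and Il1rl1, whereas the lines do not all run 1 way for the other 7 genes.

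Among the α chains of the IL-3 family, 0 of 3 passed and none was separated between the groups. Il3ra, which encodes the IL-3-binding chain, had normalized log2 levels of 15.27, 14.53 and 13.41 in WT cultures 1, 2 and 3 and of 14.66, 12.46 and 15.06 in p85α-/- cultures 1, 2 and 3. The groups overlapped, the lowest level being that of a p85α-/- culture and the highest that of a WT culture, and array 3 ran the other way from arrays 1 and 2. The log2 ratio was -0.34 ± 1.87 (SD, n = 3; 95% interval -2.69 to 2.01; adjusted p = 0.963 by limma), and it was 0.93 with median centring of each array instead of quantile normalization.

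Csf2ra, the GM-CSF-binding chain, had levels of 12.03, 11.75 and 12.93 in WT and 12.03, 13.11 and 11.94 in p85α-/-. One p85α-/- culture, that of array 2, stood highest, and array 1 showed next to no difference (-0.0047). The mean log2 ratio was 0.12 ± 1.18, with an interval of -1.44 to 1.68. It was 1.34 with median centring, where Csf2ra passed, and -0.50 without replicate 2. Il5ra, the IL-5-binding chain, had 7.21, 6.76 and 8.07 in WT and 6.98, 6.88 and 7.23 in p85α-/-. These were dim signals, with WT well above background on 2 of 3 arrays, and the groups overlapped at a mean of -0.32 ± 0.49. The intervals of Il3ra and Csf2ra reach beyond 1 log2 unit either way, so these arrays do not show that the levels were alike.

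Both β chain genes had mean log2 ratios above 2 at their brightest probe, with unequal agreement between arrays. For Csf2rb that probe owes its rank to the p85α-/- channels, since another of its probes was brighter in WT and had a mean of -0.06. At its brightest probe, Csf2rb, the chain shared by the IL-3, GM-CSF and IL-5 receptors, had levels of 9.88, 10.01 and 11.23 in WT and of 13.74, 15.37 and 9.41 in p85α-/-. The p85α-/- cultures of arrays 1 and 2 stood above every WT culture and that of array 3 below every one. The log2 ratios were accordingly 3.87, 5.35 and -1.82, with a mean of 2.47 ± 3.79 (95% interval -2.16 to 7.09; adjusted p = 0.908 by limma). Without replicate 3 the mean was 4.61 and Csf2rb passed both criteria, whereas it was 1.77 without replicate 1, 1.02 without replicate 2 and 1.38 over all 3 probes, where it did not pass.

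The 3 probes of Csf2rb did not behave alike. They lie on chromosome 15, plus strand, at 78429378 to 78429640, 78431162 to 78431221 and 78433690 to 78433749 as the array's annotation gives them without a genome build, the brightest being the last. The middle probe had log2 ratios of -0.60, 4.59 and 1.21 (mean 1.73 ± 2.64), and the first had -3.01, 3.35 and -0.51 (mean -0.06 ± 3.20). Array 2 was the only one on which all 3 probes were higher in p85α-/-. On array 1 the ratio climbed from -3.01 to 3.87 over the 4312 bases from the first probe to the last. The sign of the first probe's mean turned under loess (0.023), median centring (0.75) and without replicate 1 (1.42) or 3 (0.17).

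Csf2rb2, the β chain particular to the IL-3 receptor, was measured by 1 probe on the same chromosome, minus strand, at 78365648 to 78365707. Its levels were 11.29, 10.31 and 11.37 in WT and 12.96, 15.60 and 12.31 in p85α-/-. Every p85α-/- culture lay above every WT culture, with the culture of array 2 far above the other two. The log2 ratios were 1.67, 5.30 and 0.94, a mean of 2.64 ± 2.33 or 6.21-fold (95% interval -0.26 to 5.53; adjusted p = 0.908 by limma). Csf2rb2 thus did not pass here, but it did under 4 of 14 alternatives, among them limma without the pairing by array and limma without replicate 2 (mean 1.30). Since Csf2rb and Csf2rb2 are close copies of each other, a probe for one may capture cDNA of the other, and how much of either signal is shared was not tested.

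**Figure D2:**
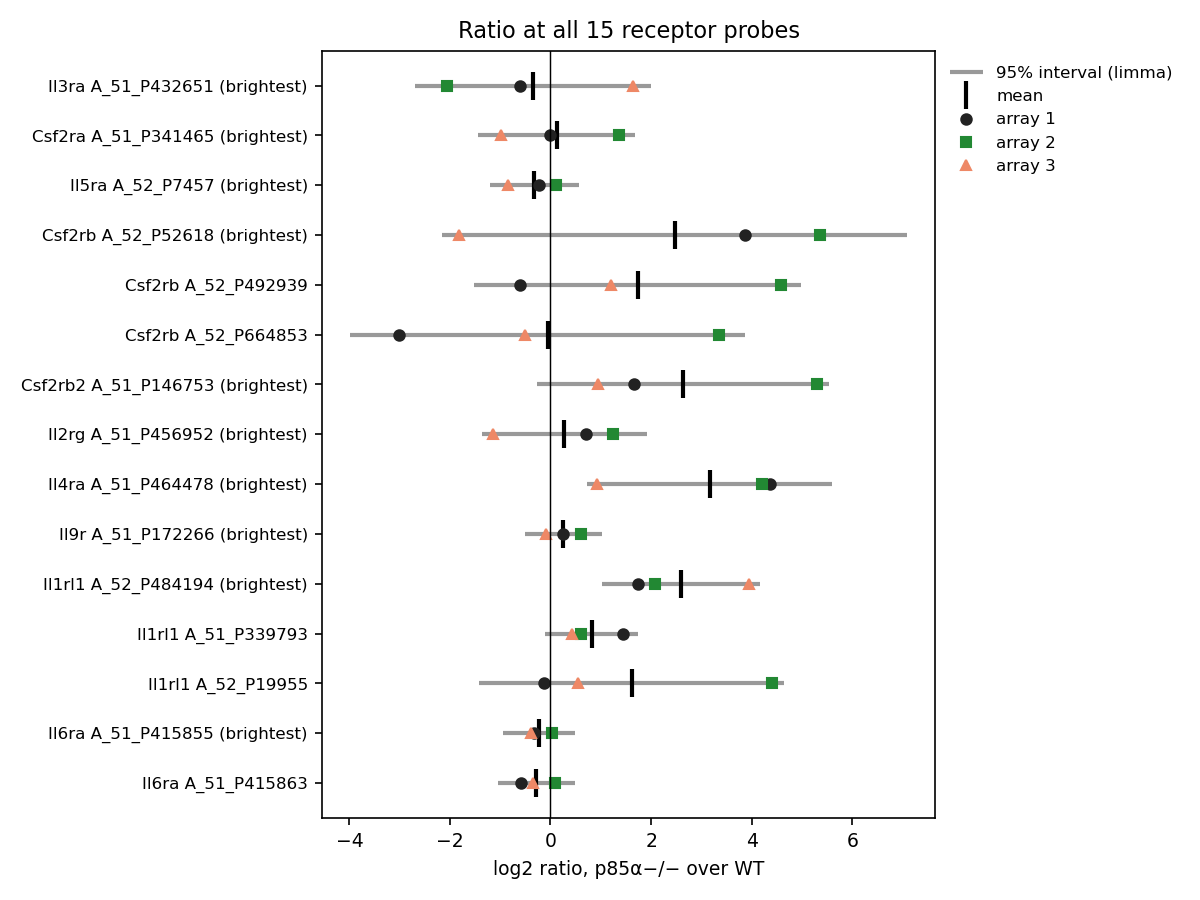
Log2 ratio of p85α-/- over WT (horizontal axis) at all 15 probes of the 10 receptor genes, with 1 symbol for each array, a black bar for the mean and a grey line for limma's 95% interval. The interval stays above 0 at 2 probes, the only probe of Il4ra (0.73 to 5.60) and the brightest of Il1rl1 (1.02 to 4.16), and is widest at the probes of Csf2rb.

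Of the common γ chain and its partners, Il4ra alone passed. Il4ra encodes the chain that binds IL-4, pairs with the γ chain or with IL-13Rα1, and has 1 probe (chromosome 7, plus strand, 121674181 to 121674240, no build named). Its levels were 8.88, 9.24 and 8.75 in WT and 13.24, 13.44 and 9.68 in p85α-/-. All p85α-/- cultures lay above all WT cultures, those of arrays 1 and 2 by a wide margin and that of array 3 narrowly. The log2 ratios were 4.36, 4.20 and 0.93, a mean of 3.16 ± 1.94 (8.96-fold; 95% interval 0.73 to 5.60), with an adjusted p of 0.908 by limma. The mean lay between 2.56 and 4.28 over 14 alternatives. Il4ra no longer passed without replicate 1 (2.56), without replicate 2 (2.65) or by the methods' t-test in either form.

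Il2rg, the common γ chain itself, had levels of 8.50, 8.10 and 9.52 in WT and 9.21, 9.35 and 8.38 in p85α-/-. Arrays 1 and 2 were higher in p85α-/- and array 3 lower, so the groups overlapped, with a mean log2 ratio of 0.27 ± 1.25 (interval -1.37 to 1.92). Il9r, the IL-9-binding chain, had 8.03, 8.21 and 8.20 in WT and 8.28, 8.81 and 8.12 in p85α-/-. Its groups overlapped as well, and its mean of 0.26 ± 0.34 had an interval of -0.51 to 1.03. Without replicate 2, the mean of Il2rg was -0.21.

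Il1rl1 encodes the IL-33 receptor ST2 in a membrane-bound form and, from a shorter transcript, a secreted form. It passed both criteria. At its brightest probe (chromosome 1, plus strand, 40705585 to 40705644, no build named) the levels were 11.68, 10.03 and 8.71 in WT and 13.42, 12.12 and 12.65 in p85α-/-. Every p85α-/- culture was above every WT culture. The log2 ratios of 1.75, 2.09 and 3.94 gave a mean of 2.59 ± 1.18 (6.03-fold; 95% interval 1.02 to 4.16; adjusted p = 0.908 by limma). Il1rl1 passed with each replicate left out in turn, where the mean lay between 1.92 and 3.01, and under 12 of 14 alternatives in all. The exceptions were the methods' t-test, unpaired and paired by array.

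The other Il1rl1 probes lie upstream of that one. The probe at 40688351 to 40688410, annotated to a different transcript from the brightest, had levels of 6.86, 6.77 and 6.66 in WT and 8.30, 7.38 and 7.08 in p85α-/-. The groups did not overlap, but WT was not well above background there on any array. Its ratio is therefore one over a WT signal near background, and no minimum fold can be given. After loess and Aquantile normalization the mean log2 levels were 7.63 in p85α-/- and 7.09 in WT, a measured ratio of 1.45-fold. The adjusted p was 0.918 by limma in that setting. With quantile normalization the mean log2 ratio was 0.82, and limma's interval of -0.10 to 1.75 does not exclude equal levels. With the scanner software's processed signals the test put this probe past both criteria. The ratio there is also one over a WT signal not well above background and gives no fold. The first probe, at 40680766 to 40681628 and annotated to both transcripts, had 9.43, 7.86 and 10.64 in WT and 9.29, 12.27 and 11.20 in p85α-/-, with ratios of -0.13, 4.41 and 0.55. The groups overlapped there, and most of the mean of 1.61 ± 2.45 came from array 2. That probe passed both criteria only with median centring (2.32).

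Il6ra, which encodes the IL-6-binding chain, differed least between arrays. Its brightest probe had levels of 10.50, 10.05 and 9.90 in WT and 10.17, 10.08 and 9.51 in p85α-/-, and the groups overlapped. The mean log2 ratio was -0.23 ± 0.23 (95% interval -0.94 to 0.48; adjusted p = 0.912 by limma). The other probe, 9748 bases away, gave -0.28 ± 0.33. Both were above 0 with median centring, at 0.57 and 0.36.

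**Figure D3:**
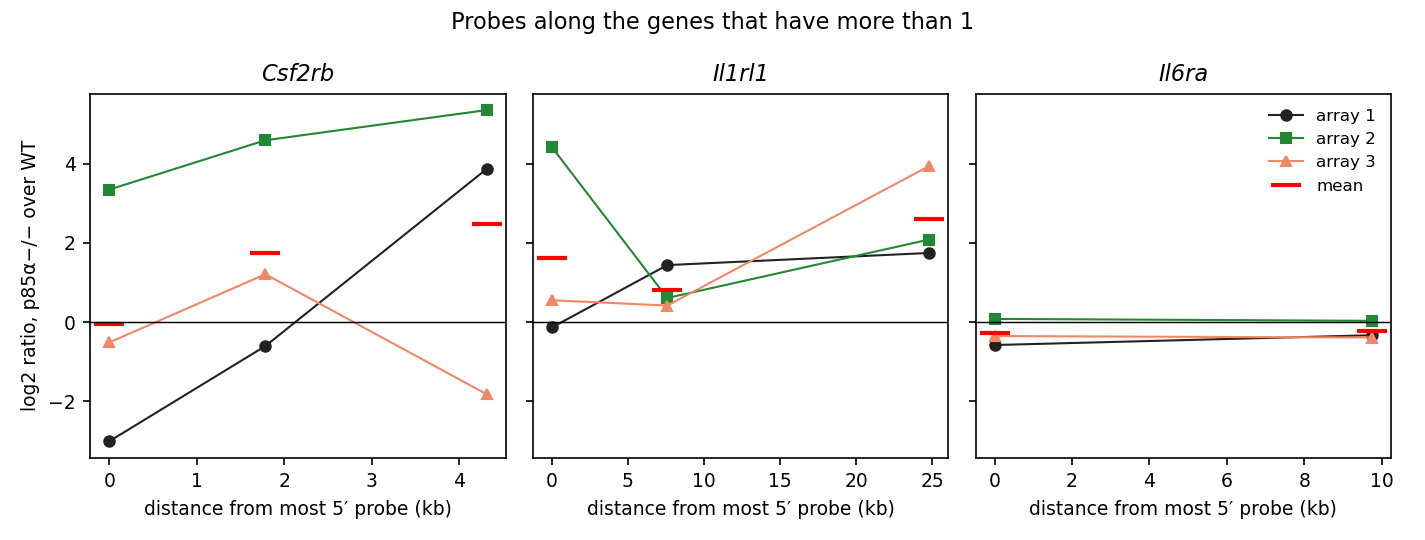
Log2 ratio of p85α-/- over WT (vertical axis) against the distance from the most 5′ probe in kb (horizontal axis) for Csf2rb, Il1rl1 and Il6ra, with 1 line for each array and a red bar for the mean. The last probe of Csf2rb has the highest mean of the 3 (2.47), the middle probe of Il1rl1 is one where WT was not well above background, and both Il6ra probes stay near 0.

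The pattern of Csf2rb over the 6 channels was set beside that of all 25577 probes well above background in every channel. The channels share arrays, dyes and PCR amplification, and 6 points give high correlations readily, so the values are a description. The 3 other named genes most like the brightest Csf2rb probe were Stx8 (Pearson's r = 0.988), Lrrc1 (0.986) and D230007K08Rik (0.984), and 47 probes (0.184%) had r above 0.95. Among the receptor genes r was 0.912 for Il4ra, 0.877 for Il9r, 0.851 for Csf2rb2 and 0.735 for Il2rg. Csf2ra had 0.630, the brightest Il1rl1 probe 0.330 and its first probe 0.451, and the Il6ra probes 0.213 and 0.214. The other Csf2rb probes had only 0.424 and 0.412, and Il3ra had -0.729.

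The rest of the receptor pathways was described by lists, which gives the surroundings of the 10 genes. Of 11 ligands measured, 0 passed and 7 were above 0, with a median of 0.01. Il3 had the highest mean of them (0.96 ± 1.77), which came from array 1 (3.01 against -0.13 and 0.01), and Il9 the lowest (-0.55 ± 0.59). Of 26 other cytokine receptors, 2 passed as higher and 1 as lower, 11 were above 0, and the median was -0.20. Those that passed were Il10ra, the IL-10-binding chain (mean 2.36, with 1.95, 1.53 and 3.61 by array), Ifnar2, a chain of the type I interferon receptor (2.11 ± 0.75; adjusted p = 0.868 by limma), and Osmr, which binds oncostatin M (-0.94 ± 0.48). The second probe of Ifnar2 (-0.09 ± 0.51), which was the brighter one in WT, and that of Osmr (-0.02 ± 0.49) did not show these differences. The lowest mean was that of Csf1r, the M-CSF receptor (-1.01 ± 1.35), which did not pass.

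Of 21 genes of proximal signalling (JAK kinases, STAT factors, adaptors and phosphatases), 0 passed, 10 were above 0, and the median was -0.08. Their means ran from Traf6, an adaptor of the IL-33 receptor pathway (-0.99 ± 1.01), to Shc1, an adaptor of the β chain (1.72 ± 2.31). All 8 genes listed as known STAT5 targets were above 0, with a median of 1.16, and 1 of the 8 passed. Of all genes 43% were above 0 and 877 of 27951 passed as higher, as did 2.78% of probes. The STAT5 target that passed was Ccnd2, encoding cyclin D2 (2.95 ± 1.47), whose other probes had means of 0.53 and 1.26. Under the alternatives, between 0 (the methods' t-test, or the probe brightest in WT) and 6 (median centring) of the 8 passed, and 7 or 8 were above 0. Socs3, a feedback inhibitor of cytokine signalling, had the lowest mean of the 8 (0.11 ± 0.23). Whether the STAT5 target list moved with the β chains was not tested.

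**Figure D4:**
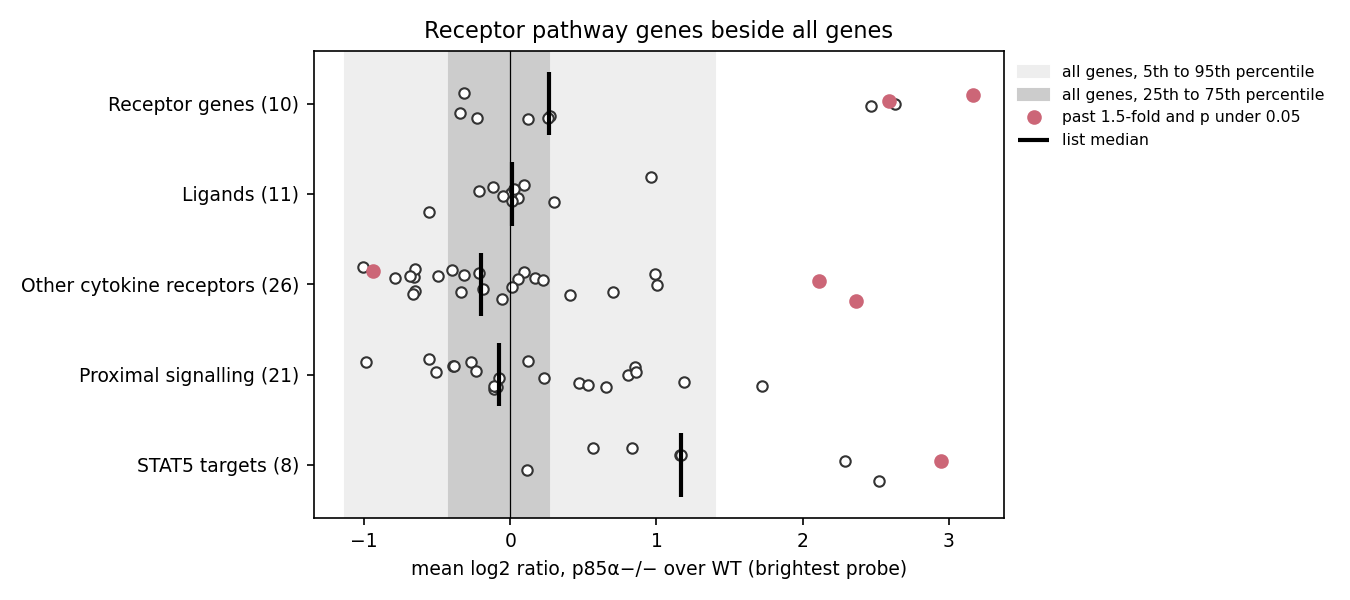
Mean log2 ratio of p85α-/- over WT (horizontal axis) of each gene at its brightest probe, in 1 row for each list, with red points for genes past 1.5-fold and an unadjusted p under 0.05, black bars for list medians and grey bands for the spread of all genes. Csf2rb2, Il4ra and Il1rl1 lie beyond the 95th percentile of all genes (1.40), as does Csf2rb at this probe but not at the one brightest in WT (-0.06), and the other 6 receptor genes lie between the 25th and 75th percentiles or close to them (-0.34 to 0.27).

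The labelled cell type was checked against its markers, since these receptors are also carried by basophils, eosinophils and myeloid cells. Of 11 mast cell markers, 10 were well above background in WT and all 11 in p85α-/- on every array, 10 had means above 0, and 2 passed as higher, Kit (2.06 ± 0.56) and the chymase gene Cma1 (2.37 ± 1.76). The second Cma1 probe had -0.01, 4.32 and -0.40 by array (1.30 ± 2.62) and did not pass. The highest and lowest means of the list were those of Tph1 (2.44 ± 2.18) and Mcpt4 (-0.89 ± 2.38). Fcer1a, the chain of the IgE receptor that binds IgE, had -2.99, 3.32 and 1.39. The summed level of the list (log2 of the sum) was 14.83 to 16.09 in WT and 16.57 to 17.35 in p85α-/-, with no overlap, like Il4ra, Il1rl1 and Csf2rb2. Of 7 neutrophil markers, 2 passed as higher, S100a8 (2.14 ± 1.56) and S100a9 (2.55 ± 1.79), 5 were above 0 and Ltf was lowest (-0.55 ± 0.86). Their sum was 12.97 to 14.19 in WT and 16.09, 11.48 and 17.80 in p85α-/- on arrays 1, 2 and 3.

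Basophil markers gave sums of 10.79 to 13.19 in WT and 12.34 to 12.78 in p85α-/-, with 0 of 4 past the criteria, from Itga2 (-0.84 ± 2.11) to Cd200r3 (0.93 ± 1.79). Eosinophil markers gave 12.53 to 12.82 and 12.09 to 13.16. Of these 5 genes, 1 passed as lower, Prg3 (-1.07 ± 0.27), and Ccr3 had the highest mean (1.53 ± 2.49). Macrophage and T cell lists each had 0 of 6 past the criteria, with sums that overlapped between the groups (11.40 to 12.70 against 11.26 to 11.84, and 12.15 to 12.91 against 11.68 to 12.57). Among genes that every array measured well above background in 1 or both channels, the highest and lowest means were those of Cd68 (0.16) and Adgre1 (-1.39) in the macrophage list and of Gata3 (0.30) and Cd4 (-0.74) in the T cell list. Mrc1, which did not meet that limit, had a mean of 0.91. The part of the mast cell, neutrophil and other markers in the receptor values was not tested. In RNA of whole sorted cultures, a smaller share of cells of a type and less RNA per cell cannot be told apart.

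**Figure D5:**
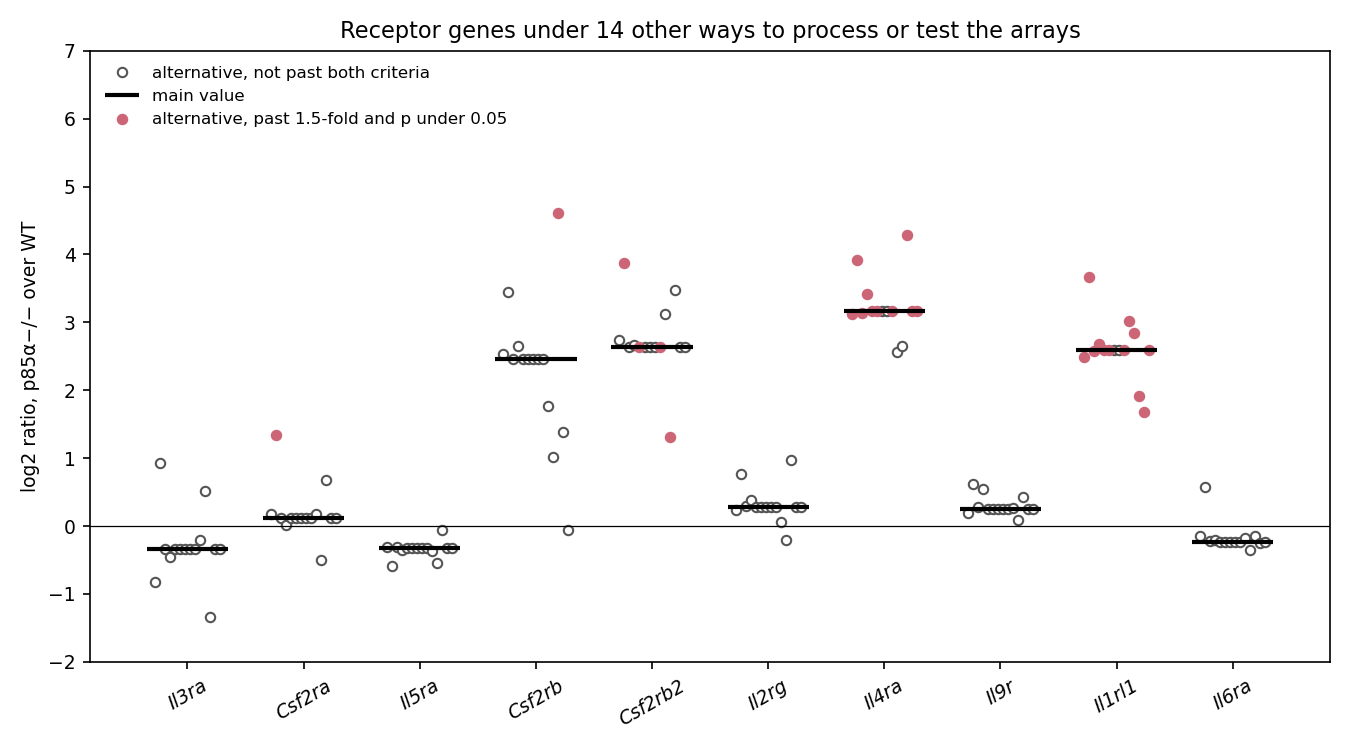
Log2 ratio of p85α-/- over WT (vertical axis) of each receptor gene as reported (black bar) and under 14 other ways to process or test the arrays (circles, red where past 1.5-fold and an unadjusted p under 0.05). Il4ra (2.56 to 4.28), Il1rl1 (1.68 to 3.67), Csf2rb2 (1.30 to 3.87) and Il9r (0.086 to 0.62) stay above 0 throughout, and Csf2rb (-0.06 to 4.61), Il3ra, Csf2ra, Il2rg and Il6ra fall on both sides of 0.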

How the data were processed

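Scanner files of 3 two-colour arrays were used. The deposited intensity values are each spot's mean signal and background median in both channels, extracted by the authors with Agilent Feature Extraction 9.5.1.1 and not normalized, next to processed signals. The deposited log10 ratios are the software's own. The series' table of log10 ratios, also deposited, was not used, since for replicates 2 and 3 only 190 and 226 of 40929 probes with 1 spot stood on their own probe (tolerance 1.5e-05).

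In R 4.3.3 with limma 3.58.1, background was corrected with normexp (offset 50), the 6 channels were quantile normalized, as the study's methods name, and control and outlier spots were left out. Of 41174 probes, 41157 had a value on every array. The log2 ratio within each array entered an intercept-only lmFit, which pairs the cultures hybridized together, followed by eBayes and Benjamini-Hochberg adjustment over all probes. The procedure was tested on simulated data. A gene stands for its brightest probe. Named genes are all members, Pik3r1, Kit and Fcer1a, the highest and the lowest of each list (among genes that every array measured well above background in 1 or both channels), every passing list gene, and the 3 probes most like Csf2rb. A further marker list is not reported here. Il33, Crlf2, Irs2 and Ly6g were not found by name. Gene names come from the array's design, and probe positions from its annotation. Alternatives were loess with Aquantile, median centring, no background subtraction, processed signals, bright probes only, outlier spots left in, no pairing, each replicate left out, the mean over probes, the probe brightest in WT (added after seeing the data), and the methods' t-test in both an unpaired and a paired form. The receptor genes, lists and tests were chosen with earlier results of these data known.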

Additional observations from a re-analysis of the deposited data

How the results depend on the processing

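Under each of the 12 alternatives fitted over all probes, 0 probes passed 0.05 after adjustment, by limma or by the methods' t-test, and 1501 to 3165 did so before it. Of the 10 receptor genes, 2 passed 1.5-fold and an unadjusted p under 0.05, against 4 with median centring, 0 by the methods' t-test in either form, 3 without pairing (limma, no replicate block) and 1 to 3 with a replicate left out, the lowest without replicate 1. Over all probes 1829 passed, against 1125 and 819 by that test, unpaired and paired, 1809 with no replicate block, 2698 with median centring and 1555 to 3165 with a replicate left out, the highest without replicate 2. Of the 1829, 62.6% were higher in p85α-/-, 47.5% of those without replicate 2 and 91.4% of those with median centring, under which the median over all probes went from -0.05 to 0.09 and that over the receptor genes from 0.27 to 1.14, with 9 above 0. Signs turned with median centring for Il3ra (0.93), Il6ra (0.57; other probe 0.36) and the first Csf2rb probe (0.75), the last also with loess (0.023). With a replicate left out Il3ra ran from -1.34 to 0.52, Csf2ra from -0.50 to 0.67, Il2rg from -0.21 to 0.98 and the first Csf2rb probe from -1.76 to 1.42. With the probe chosen by WT level alone, an alternative added after seeing the data, Csf2rb was at -0.058 and 6 of 10 receptor genes were above 0. Il4ra, Il1rl1, Csf2rb2, Il9r and Il5ra kept their sign under all 14. With median centring Csf2ra (1.34) and Csf2rb2 (3.87) passed too, as did the first Il1rl1 probe (2.32). The middle Il1rl1 probe passed with processed signals, where its ratio is over a WT signal not well above background and gives no fold. Over the alternatives 0 to 1 of 11 ligands, 1 to 4 of 26 other cytokine receptors and 0 to 3 of 21 proximal signalling genes passed, and 18 of the last were above 0 with median centring and 8 by that choice of probe, against 10. Where no replicate was left out, the cause was not tested. The alternative from the series' table was not run. Dim probes, as of Il5ra in WT, are limited by background.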
